A study of Rattus norvegicus and Mus musculus with 14 samples.

Results

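Unstimulated cultures of embryonic rat cortical neurons were set against the cortex of an adult mouse, array by array. The members are 3 culture arrays and 1 cortex array, 4 of the 14 arrays of the series, chosen by their titles. All probes of the array were used: 384 carry a single gene symbol, 6 carry several and 762 carry none. The cultures are the control of the second MEK experiment (the MEK control, drawn in the plots as MEK set control 2) and the controls of the first and second NOS experiments (NOS control 1 and NOS control 2). These names come from the inhibitor experiments for which they served as controls, and all 3 had received only a solution that the labels call CSS, with neither NMDA nor an inhibitor. The cortex came from an adult C57BL wild-type littermate of a mouse lacking neuronal nitric oxide synthase (nNOS). Another unstimulated culture array, the control of the first MEK experiment, was left out because its column is deposited 1 row away from its probes. Its correlation with the MEK control was 0.122 as deposited and 0.859 once moved by 1 row. Comparisons also use the nNOS knockout cortex and all 11 aligned rat arrays, which are the 3 controls and the treated cultures of both sets. The treated cultures are titled NMDA, PD98059 (the MEK inhibitor) or NitroArg (nitroarginine, the NOS inhibitor). The rat strain, the embryonic day, the days in culture and the age of the mouse are not given in the sources used here.

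Species, developmental stage and culture all change together between the groups, so their contributions cannot be told apart. The cortex array carries no experiment number, so differences between experiments cannot be told apart from these either. The values are scores centred on 0 within each array, given here as Z units. Among the arrays compared, the SD is near 1 except in NOS control 2, where it is 0.857. A Z-score shows a probe's brightness relative to the other probes of its own array, so no fold change can be derived and levels of different probes are not compared. There is 1 cortex array, so every difference shares it. Nothing says that the 3 culture arrays came from separate cultures.

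In embryonic cortical cultures the cells are young neurons that extend axons and dendrites over days, with some glia and progenitors carried over from dissociation. Growing axons need large amounts of tubulin and of the proteins that bind microtubules and actin. In the adult cortex, axons are mature and carry neurofilaments, synapses are established, and oligodendrocytes and astrocytes contribute to the RNA.

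The cultures did not stand at 1 common distance from the cortex. NOS control 1 was the nearest, with a Pearson correlation of 0.896 with the cortex array across all probes. The MEK control had 0.753 and NOS control 2 had 0.608. These are correlations across probes of 1 array pair, and probes are not independent replicates. Among themselves the cultures correlated at 0.858 (MEK control with NOS control 1), 0.387 (MEK control with NOS control 2) and 0.491 (NOS control 1 with NOS control 2). NOS control 1 thus lay nearer to mouse cortex than to either of the other rat cultures. The cortex of the nNOS knockout littermate correlated at 0.980 with the wild-type array, and at 0.793, 0.921 and 0.555 with the MEK control, NOS control 1 and NOS control 2. The treated rat arrays followed the MEK set or the NOS experiment they belonged to. Wild-type cortex correlated at 0.730 to 0.753 with the 5 aligned MEK arrays, at 0.862 to 0.896 with the 3 arrays of NOS experiment 1 and at 0.608 to 0.710 with the 3 of NOS experiment 2.

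**Figure D1:**
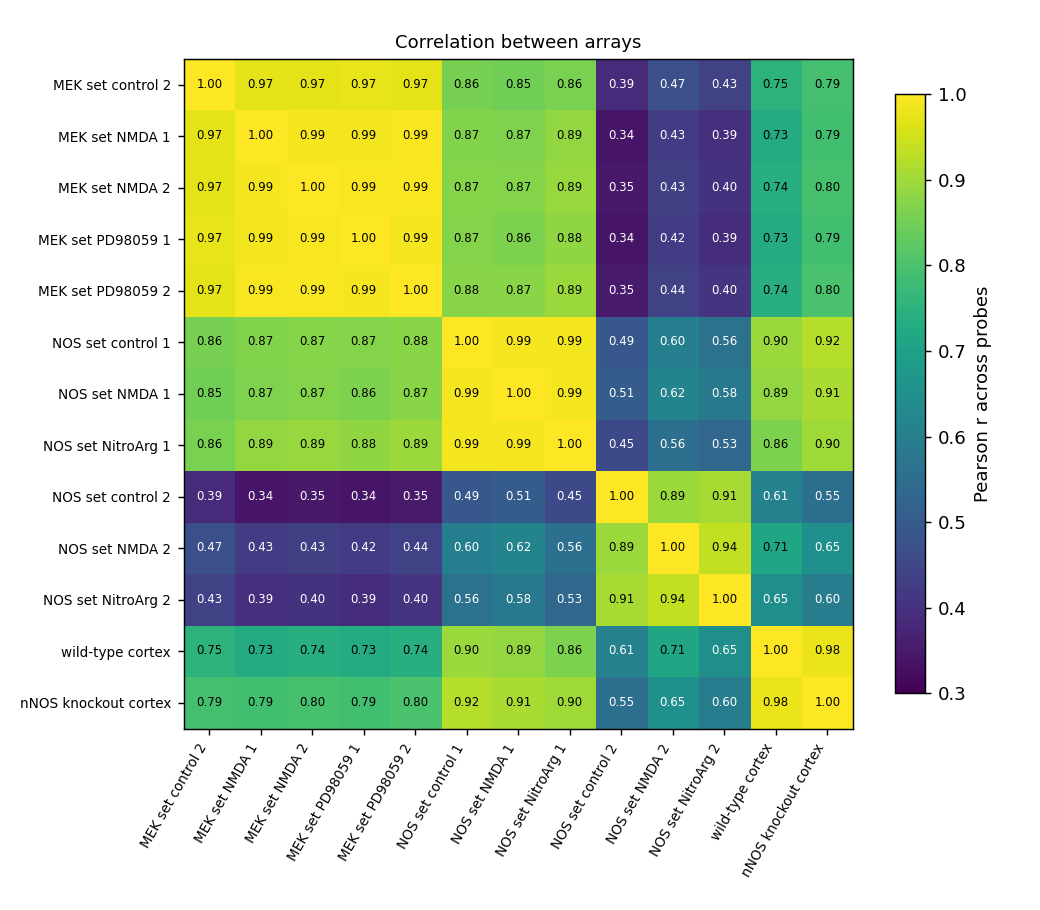
Pearson correlation across all probes between the 11 aligned rat arrays and the 2 mouse cortex arrays, with each coefficient printed in its cell and shown by colour. The MEK arrays group together across their experiments, and the arrays of each NOS experiment group together. NOS experiment 2 stands apart from the other rat arrays, and the arrays of NOS experiment 1 lie near both cortex arrays.

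The size of the differences followed the same order. Culture minus cortex had an SD over probes of 0.455 Z units for NOS control 1, 0.702 for the MEK control and 0.831 for NOS control 2, against 0.199 between the knockout and wild-type cortex. In NOS control 1, 17 probes (1.48%) lay more than 1 Z unit above the cortex and 20 (1.74%) more than 1 below. In the MEK control these were 116 (10.1%) and 51 (4.43%), and in NOS control 2 they were 131 (11.4%) and 138 (12%). No probe (0) differed by more than 1 Z unit between the 2 cortex arrays. Over the 3 cultures and the cortex array, 82.3% of the sum of squares between arrays lay among the cultures and 17.7% between the cultures and the cortex, a contrast that holds 1 of the 3 degrees of freedom.

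**Figure D2:**
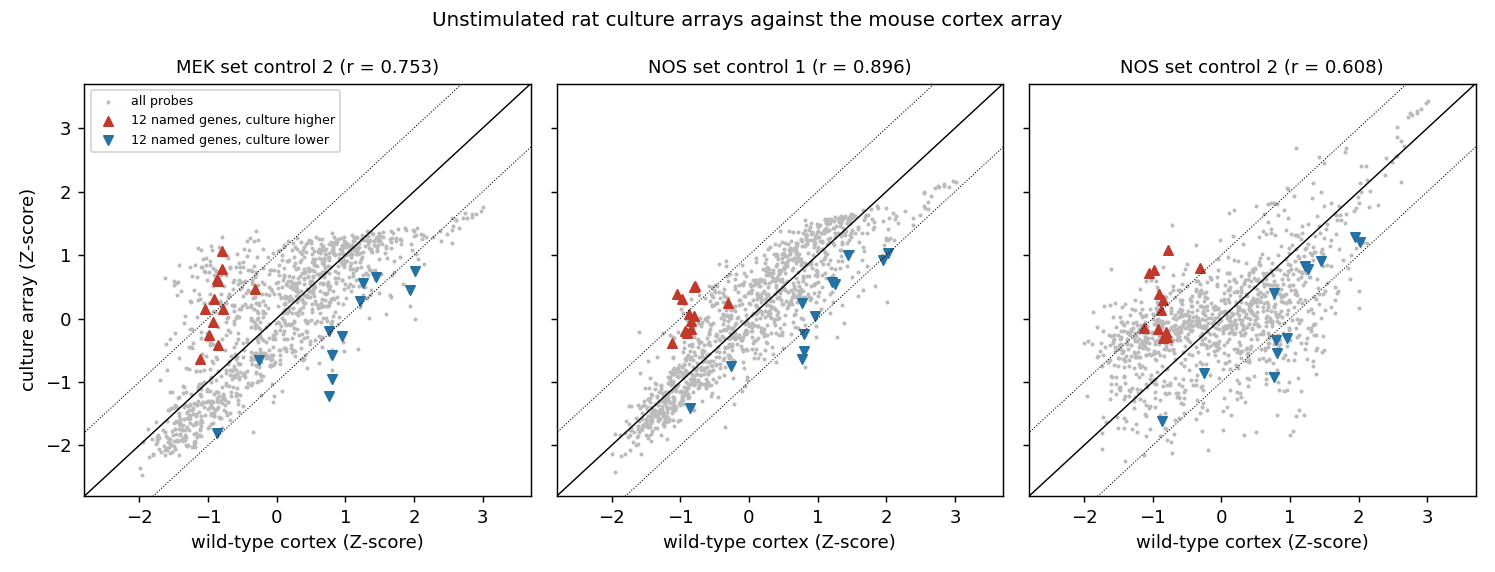
Z-score of each probe in the MEK control, NOS control 1 and NOS control 2 against its Z-score in wild-type cortex, with the line of equality and dotted lines 1 Z unit to either side. Triangles mark the 12 genes named above cortex and the 12 named below it. The MEK control flattens at the bright end, while NOS control 2 is a broad cloud.

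The arrays also differ in shape. The brightest value was 1.75 in the MEK control and 2.17 in NOS control 1, against 3.01 in wild-type cortex and 3.42 in NOS control 2. Of the 58 probes that make up the brightest 5% of the cortex array, 58 were lower in the MEK control, 57 in NOS control 1 and 37 in NOS control 2. These probes were chosen for being high on the same cortex array that is subtracted, which by itself favours lower values in any other array. Their median differences were -0.98, -0.67 and -0.13 Z units, and -0.19, -0.19 and -0.099 once the 4 arrays had been given the same distribution by quantile normalization. For the dimmest 5%, chosen on that array in the same way, the median differences were -0.23, -0.10 and 1.05. Over all probes the median differences were -0.11, -0.014 and 0.031.

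Limma with the 3 cultures against the cortex array called 0 probes higher (0%) and 0 lower (0%) in culture, at an adjusted p under 0.05. The lowest adjusted p was 0.9997. Before adjustment 9 probes were under 0.05, against 57.6 if p-values were spread evenly. The lone cortex array is assumed in that fit to vary like the culture arrays. Without NOS control 2, the count was again 0, with 121 probes under 0.05 before adjustment and a lowest adjusted p of 0.0521 in limma. With all 11 aligned rat arrays as cultures, treated ones included, it called 2 probes, both lower than in cortex. Of these, 1 is Kiaa1191, at -1.71 Z units (SE 0.28, adjusted p = 0.0384 in limma), and the other has no gene name here. That fit treats arrays of 1 experiment as separate samples although they resemble each other, so its p-values are too small.

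Of all probes, 4 (0.347%) lay more than 1 Z unit above the cortex in each of the 3 cultures and 7 (0.608%) more than 1 below. The comparisons share the cortex array, and an error in it would move all 3 alike. With the knockout cortex in its place the counts were 6 and 4. Without the MEK control they were 8 and 8, without NOS control 1 they were 23 and 8, and without NOS control 2 they were 13 and 15. Only 1 of the 4 higher probes has a gene name, Mapt, and 3 of the 7 lower ones do, Kiaa1191, Vps29 and Hp1bp3. Genes are described below by how far the nearest of the 3 cultures lay from the cortex, with the 12 leading genes each way. The last gene taken above the cortex was Cand1, with its nearest culture at 0.43 Z units, and the first left out was Ctsb at 0.41. Below the cortex these were Actb at -0.37 and Polr2m at -0.36.

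Promoter sequence is shown for the leading gene each way that has an entry in the RefSeq promoter table, Tuba1a above the cortex and Kiaa1191 below it. Each is the 250 bases before the annotated start in rat build GRCr8, 5′ to 3′ on the gene's strand. Tuba1a lies at chr7:131995820-131996069 on the minus strand and Kiaa1191 at chr17:10054015-10054264 on the plus strand. Capitals mark the TATA motif TATAA, the GC box GGGCGG and the CCAAT box, searched on both strands; none of the matches overlap. The array measured RNA and not these regions, and the mouse promoters are not shown.
Tuba1a: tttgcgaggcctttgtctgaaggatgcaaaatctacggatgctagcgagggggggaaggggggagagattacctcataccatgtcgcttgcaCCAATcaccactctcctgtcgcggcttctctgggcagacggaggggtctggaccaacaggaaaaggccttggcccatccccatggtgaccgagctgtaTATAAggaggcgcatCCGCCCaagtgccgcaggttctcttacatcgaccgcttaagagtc
Kiaa1191: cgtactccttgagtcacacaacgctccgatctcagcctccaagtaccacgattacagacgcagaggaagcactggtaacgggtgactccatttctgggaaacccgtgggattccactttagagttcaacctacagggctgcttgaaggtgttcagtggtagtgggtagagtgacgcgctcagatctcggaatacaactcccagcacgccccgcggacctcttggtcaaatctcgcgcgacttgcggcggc
The Tuba1a window holds each motif once, with the CCAAT box starting 158 bases, the TATA motif 60 bases and the GC box (on the opposite strand) 45 bases before the start. The Kiaa1191 window holds none of the 3. Of 33469 rat promoter windows of the same length, 24% hold the TATA motif, 30.5% the GC box and 34% the CCAAT box.

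Above the cortex, the leading genes included Mapt and Tuba1a, both of neuronal microtubules. Mapt encodes tau, which binds and stabilises microtubules in axons. Its probe was at 0.15 in the MEK control, 0.39 in NOS control 1 and 0.72 in NOS control 2, against -1.046 in wild-type and -1.050 in knockout cortex. All 3 cultures were above both cortex arrays, by a mean of 1.47 Z units over wild type (SE 0.55). Tuba1a, the alpha-tubulin isotype prominent in developing neurons, was at 0.15, 0.51 and 1.07 in the same order of cultures, against -0.78 and -0.81 in wild-type and knockout cortex. The mean difference was 1.36 (SE 0.59). For both genes the MEK control was the lowest culture and NOS control 2 the highest. Over the 11 aligned rat arrays, treated ones included, Mapt ran from -0.063 to 1.25 and Tuba1a from 0.15 to 1.53, all above both cortex arrays. Such separation in all 11 was seen for 87 probes above (7.55%) and 91 below (7.9%), so it is not rare on this array. Quantile normalization, median and MAD scaling and ranks kept Mapt and Tuba1a above the cortex in each of the 3 cultures.

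Zwint, a kinetochore protein gene whose rat product was also found as a partner of the synaptic protein SNAP25, was at 0.63, 0.066 and 0.14 in the MEK control, NOS control 1 and NOS control 2. Wild-type cortex was at -0.87 and knockout cortex at -0.38, so the distance to the knockout array is shorter. Psd, an exchange factor for the small GTPase ARF6 at neuronal membranes, was at -0.27, 0.30 and 0.76, against -0.98 and -1.01 in wild-type and knockout cortex. Like Mapt and Tuba1a it was lowest in the MEK control and highest in NOS control 2.

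Genes of intermediary metabolism followed. Ldha, the lactate dehydrogenase A subunit, was at 0.31, -0.23 and 0.38 on its leading probe, against -0.90 and -0.78 in wild-type and knockout cortex. Its other probe was at 0.23, -0.26 and -0.56 against -0.46 in wild-type cortex, so there NOS control 2 lay below the cortex. Idh3g, a subunit of the NAD-dependent isocitrate dehydrogenase of mitochondria, was at 1.07, 0.50 and -0.21. It had -0.80 in wild-type but -0.14 in knockout cortex, and against the knockout array NOS control 2 was lower. Of the 12 genes, Idh3g was the exception in this respect, and the other 11 had all 3 cultures above both cortex arrays. Of all probes 141 (12.2%) did, out of the 178 above wild-type cortex in all 3 cultures, the condition by which the genes were chosen.

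The other genes above the cortex had smaller distances. Ddx5, an RNA helicase of splicing and transcription, was at 0.47, 0.24 and 0.80, against -0.31 and -0.081 in wild-type and knockout cortex. Rps19, a small-subunit ribosomal protein gene, was at -0.64, -0.39 and -0.16, against -1.12 and -0.97. Slc30a9, of a zinc transporter family, was at 0.59, -0.036 and -0.30, and Tmprss5, a transmembrane serine protease gene, at 0.79, 0.041 and -0.29, against -0.85 and -0.80 in wild-type cortex. Both of these were highest in the MEK control and lowest in NOS control 2, the reverse of the order for Mapt, Tuba1a and Psd.

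Below the cortex, Kiaa1191 led the probes with a gene name, while an unnamed probe had a wider mean difference of -1.87 Z units. Its probe was at -1.22, -0.64 and -0.93 in the MEK control, NOS control 1 and NOS control 2, against 0.77 in wild-type and 0.59 in knockout cortex. The mean difference was -1.70 Z units (SE 0.55). Vps29, a core subunit of the retromer complex that recycles cargo from endosomes, was at -0.96, -0.51 and -0.54, against 0.80 and 0.52, with a mean difference of -1.47 (SE 0.54). In the 11 aligned rat arrays Kiaa1191 stayed between -1.24 and -0.49 and Vps29 between -1.32 and -0.25. Neither range reached a cortex array, and 7.9% of all probes had all 11 rat arrays below both cortex arrays.

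Hp1bp3, a linker-histone-related chromatin protein gene, was at -0.58, -0.25 and -0.34, against 0.80 and 0.55 in wild-type and knockout cortex. Rraga, a Rag GTPase that brings mTORC1 to the lysosome when amino acids are plentiful, was at -0.28, 0.040 and -0.30, against 0.96 and 0.51. For these genes too, NOS control 1 was the culture nearest to the cortex. Etv5, an ETS transcription factor gene downstream of receptor tyrosine kinases, was at -1.80, -1.41 and -1.61, against -0.86 and -0.99. Mppe1, a phosphoesterase gene of GPI-anchor remodelling, was at -0.66, -0.75 and -0.85, against -0.26 and -0.42. Here the 3 cultures were close to each other, and the gap to the cortex was under 1 Z unit.

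Htt, encoding huntingtin, was at 0.75, 1.04 and 1.20, against 2.02 in wild-type and 2.17 in knockout cortex. Ppp1r18, a subunit that targets protein phosphatase 1 to actin, was at 0.45, 0.93 and 1.29, against 1.95 and 2.12. Its other probe was at 0.12, -0.31 and -0.34 against -0.28. The mean differences of its probes were -1.06 and 0.11, so no direction can be given for the gene. The leading probes of Htt and Ppp1r18 both belong to the brightest 5% of the cortex array and are adjacent in the probe order. Whether they are separate readings was not tested. After quantile normalization Htt still differed by -1.17, -0.86 and -0.46 and Ppp1r18 by -1.42, -0.89 and -0.34, but with median and MAD scaling NOS control 2 lay above the cortex by 0.25 and 0.44. The same scaling put NOS control 2 above the cortex for Arf3, Sh3glb2, Actb and the Cand1 probe that was lower.

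Arf3, a small GTPase of the Golgi, was at 0.57, 0.54 and 0.78 against 1.26 in wild-type cortex, and its second probe at 0.24, 0.29 and 0.63 against 0.89. The 2 probes of Arf3 thus gave like differences, with means of -0.63 and -0.50. Sh3glb2, an endophilin B gene of membrane shaping, was at 0.27, 0.58 and 0.82 against 1.21. Cand1, which exchanges substrate receptors of cullin ubiquitin ligases, was placed on both sides. It had a probe with a mean difference of 0.75 and others with -0.59 and -0.36, so no direction can be given for the gene. Actb, encoding beta-actin, had mean differences of -0.62 on the probe named below the cortex and -0.14, 0.16, 0.18 and 0.27 on its other probes. Of the 27 genes with more than 1 probe, 14 had mean differences of both signs.

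**Figure D3:**
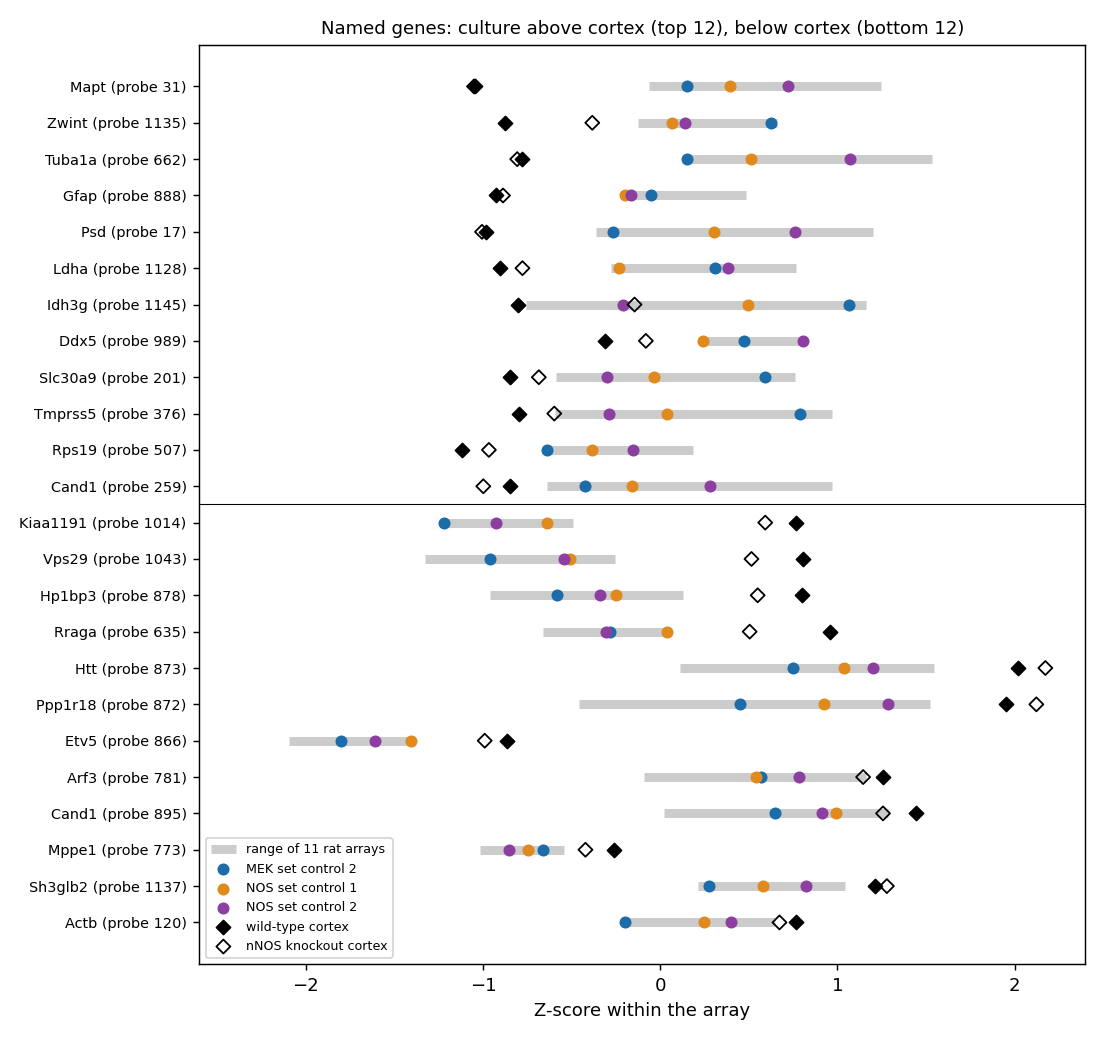
Z-scores of the 12 leading genes above the cortex (upper block) and the 12 below it (lower block), ordered by the distance of the nearest culture. Coloured points are the 3 culture controls, grey bars the range over 11 aligned rat arrays, and filled and open diamonds the wild-type and knockout cortex. Diamonds lie outside the grey bars for most genes, with Idh3g, Arf3 and the Cand1 probe below the cortex as exceptions. The genes were chosen for lying beyond wild-type cortex in 3 of these rat arrays. Of all probes, 7.55% had all 11 rat arrays above both cortex arrays and 7.9% had all below.

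The cytoskeletal list showed that tau and Tuba1a were not joined by all of their functional neighbours. Of its 15 probes of 11 genes, 7 were above the cortex in all 3 cultures and 4 below, against 178 (15.5%) and 246 (21.4%) of all probes. Those above include the Actb probes with mean differences of 0.16, 0.18 and 0.27, and those below include the Actb probe at -0.62. The median of the mean differences was 0.13, against -0.023 over all probes, and it was 0.22, 0.29 and -0.11 in the MEK control, NOS control 1 and NOS control 2. Tubb5, a beta-tubulin gene, was at 0.80, 0.89 and 0.25 against 0.11 in wild-type and 0.46 in knockout cortex. Nefl, the neurofilament light chain of mature axons, was at -1.56, -1.15 and -1.74 against -0.81 and -0.88. Sptan1, the alpha-spectrin of the submembrane skeleton, was at 0.32, 0.80 and 1.004 against 1.32 and 1.16. Nefl and Sptan1 were thus on the opposite side of the cortex from Mapt and Tuba1a in each of the 3 cultures.

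Growth cone and neurite outgrowth genes had 5 named probes, of which 3 were above the cortex in all 3 cultures and 0 below. Over all probes these shares were 15.5% and 21.4%. The 3 above include Mapt. Stmn2, a tubulin-binding protein of growth cones, was at 0.023, -0.38 and -0.18 against -0.70 in both cortex arrays. Kif5c, a kinesin heavy chain of axonal transport, was at 0.66, 0.17 and -0.27 against -0.31 in wild-type cortex, with knockout cortex at -0.018, above NOS control 2. Dpysl5, a collapsin response mediator family protein, was at 0.40, 0.72 and 0.39 against 0.53 in wild-type and -0.098 in knockout cortex. Tmsb10, an actin monomer-binding protein of developing brain, was at 1.14, 1.29 and 0.86 against 0.96. For Dpysl5 and Tmsb10 the wild-type cortex value lay within the range of the cultures.

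The labelled cell types could be checked only in part. Of the neuronal markers, Nefl, Stmn2 and Uchl1 had named probes. Uchl1, a ubiquitin hydrolase abundant in neurons, was at 1.23, 1.08 and 1.89 on 1 probe against 1.32 in wild-type cortex, and at 0.97, 0.93 and -0.51 on the other against 0.25. No named probe (0) carried an oligodendrocyte, endothelial, blood or progenitor marker of the lists used. The microglial receptor gene Csf1r was at 0.55, 0.36 and 0.84 against 1.002 in wild-type and 0.85 in knockout cortex.

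Of the astrocyte markers, Gfap and Glul were measured. Gfap, the intermediate filament of astrocytes, was at -0.051, -0.20 and -0.17 on 1 probe against -0.93 in wild-type and -0.89 in knockout cortex. Its other probe was at -1.39, -0.67 and -0.047 against -1.46 and -1.52. The mean differences were 0.79 (SE 0.53) and 0.76 (SE 0.65), with all 3 cultures above both cortex arrays on each probe. Over the 11 aligned rat arrays the first probe was above both cortex arrays in 11 and the second in 9. The MEK control was 0.067 above wild-type cortex on the second probe. Glul, glutamine synthetase, was at 0.83, 0.90 and -0.13 against 0.74 and 0.84, and thus did not follow Gfap in NOS control 2. In bulk RNA, fewer cells of a type and less RNA per cell cannot be told apart.

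The 3 postsynaptic receptor and scaffold genes had a median of -0.25, with 2 below the cortex in all 3 cultures and 0 above. Over all probes these shares were 21.4% and 15.5%. Dlg4, the PSD-95 scaffold of excitatory synapses, was at -0.024, 0.058 and 0.22 against 0.41 in wild-type and 0.28 in knockout cortex. Gabbr1, a GABA-B receptor subunit, was at -0.064, 0.40 and 0.24 against 0.45 and 0.048. Shank1, another postsynaptic scaffold, was at 0.25, 0.40 and 0.023 against 0.12 and 0.18. Only Dlg4 was below both cortex arrays in each culture, and its largest difference was -0.43. A list of 22 synaptic and neuronal membrane genes was assembled after the array's symbols and part of the values had been read. In it, 3 were above the cortex in all 3 cultures and 2 below, against 15.5% and 21.4% of all probes. The median of this list was 0.091. The neuronal calcium sensor Hpca was at 0.27, -0.76 and 0.34 against -0.82, and Ncald, of the same family, at 1.23, -0.43 and -0.11 against -0.27. Protein kinase C alpha, Prkca, was at -0.66, -0.50 and -0.27 against -0.084 in wild-type and -0.33 in knockout cortex. Hpca was 1.09 above the cortex in the MEK control and 1.16 above it in NOS control 2, but 0.057 in NOS control 1. Ncald was 1.5 above it in the MEK control, with differences of -0.17 and 0.15 in the NOS controls.

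Of 8 vesicle fusion and endocytosis probes, 2 were above the cortex in all 3 cultures and 1 below, against 15.5% and 21.4% of all probes. Sv2b, a synaptic vesicle glycoprotein gene, was at 1.23, 1.20 and 0.64 against 0.48 in wild-type and 0.77 in knockout cortex. Eps15, an endocytic adaptor, was at -0.41, -0.65 and 0.26 against -0.93 and -0.74. Stx7, a SNARE of late endosomes, was at -0.049, 0.11 and -0.0092 against 0.42 and 0.34. Vps54, a tethering factor for endosome-to-Golgi traffic, was at -0.32, -0.055 and 0.35 against 0.64 and 0.46, on the same side as Vps29 and Arf3. A list of 17 endosome and secretory trafficking genes (19 probes) was also added after the symbols and part of the values had been read. In it, 6 probes were below the cortex in all 3 cultures and 3 above, against 21.4% and 15.5% of all probes. The 6 include Vps29, Vps54, Stx7, Tbc1d23 and both Arf3 probes. Vps29 and Arf3 were already among the genes named below the cortex, so the count adds no separate evidence.

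Ribosomal protein probes, 8 in number, had a median of 0.22, with medians of 0.25, 0.33 and 0.22 in the 3 cultures. Of them, 2 were above the cortex in all 3 cultures, Rps19 and 1 probe of Rpsa, and 0 below. Over all probes these shares were 15.5% and 21.4%. Translation factor and mTORC1 genes had 16 probes and a median of 0.15, with 1 probe above in all 3 (Eef1a1) and 1 below (Rraga). Akt1s1, an mTORC1 subunit that restrains it, was at 0.55 and 0.53 on its 2 probes in the MEK control, against -1.47 and -1.50 in wild-type cortex. In NOS control 1 the probes were at -1.88 and -1.60, and in NOS control 2 at -1.12 and -0.75. The gap of about 2 Z units between the MEK control and cortex was therefore absent from NOS control 1, which lay below the cortex on both probes. The splicing factor gene Sfrs2 was also highest in the MEK control, at 1.08 in the MEK control and -0.87 and -0.57 in the NOS controls, against -1.09 in both cortex arrays, so that all 3 cultures were above the cortex. Igf2, a fetal growth factor, was at 0.75 in the MEK control, -0.90 in NOS control 1 and -1.41 in NOS control 2, against -1.05 in wild-type and -0.79 in knockout cortex. The list of neurogenic transcription factors had 3 probes and a median of 0.0015, with 1 above the cortex in all 3 cultures and 0 below. Among all probes, 15.5% were above and 21.4% below. The only probe of the cell cycle list, of Tmpo, differed from wild-type cortex by -0.32, 0.21 and -1.70 in the 3 cultures.

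List medians of energy metabolism and chaperone genes differed by culture. The median of the mean differences was 0.047 for 9 glycolysis and creatine probes, 0.050 for 11 respiration and ATP synthase probes and 0.096 for 8 chaperone probes. By culture, the respiration probes had medians of 0.063 in the MEK control, -0.16 in NOS control 1 and 0.58 in NOS control 2. The chaperone probes had 0.074, 0.25 and 0.51, in each case highest in NOS control 2. Of the 11 respiration probes, 7 are of COX3, a cytochrome c oxidase subunit that mitochondrial DNA encodes. Their mean differences ran from -0.63 to 0.54. The ATP synthase genes Atp5f1a and Atp5mc1 both differed by 0.34 in the MEK control, but by -0.66 and -1.26 in NOS control 2. Atp5pb, also of the ATP synthase, went the other way, with -0.28 and 0.58. Ndufaf1, an assembly factor of respiratory complex I, was at 1.22, 1.58 and 2.52 against 2.39 in both cortex arrays, thus also highest in NOS control 2. Hsp90ab1, a cytosolic chaperone, was at -0.34, 0.41 and 0.84 against 0.56, and the 5 Hspa8 probes had mean differences from -0.20 to 0.65. The median was -0.16 for 7 MAP kinase pathway probes and -0.060 for 9 splicing and RNA-binding probes. Of the MAP kinase probes, 1 was above in all 3 cultures, Map2k2, and 3 were below, Etv5, Mapk9 and Rap1gap. Over all probes these shares were 15.5% and 21.4%.

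**Figure D4:**
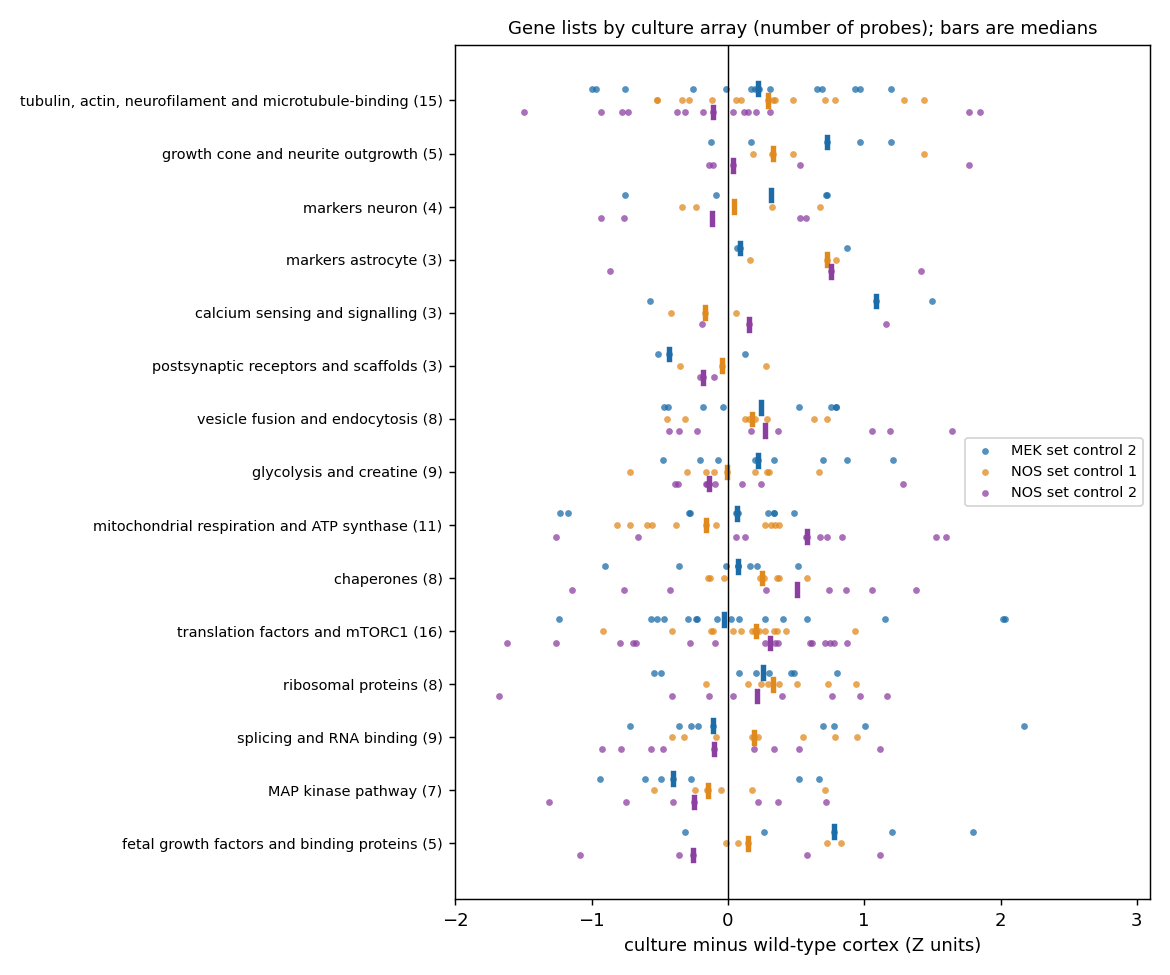
Culture minus wild-type cortex, in Z units, for each probe of 15 gene lists, with the number of probes in brackets. Points are probes, coloured by culture array, and short bars are medians. Most lists straddle 0, and the medians of the 3 cultures often lie on different sides of it.

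The list of matrix and mesenchymal genes was also assembled after the symbols and part of the values had been read. Its 16 probes had a median of 0.054, with 2 above the cortex in all 3 cultures and 1 below. Over all probes these shares were 15.5% and 21.4%. Sparc, a matrix-binding glycoprotein gene of glia and vessels, was at -1.07, -0.61 and -0.23 against -1.34 and -1.30. Serpinh1, a collagen chaperone, was at -1.37, -1.26 and -0.47 against -1.47 and -1.52. The 2 fibronectin probes (Fn1) had mean differences of -0.44 and 0.59. Probes whose gene ID is not in the rat gene table, 22 in number with 7 of COX3 among them, had median differences of 0.18, 0.19 and 0.44 in the 3 cultures. For the 362 probes whose ID is in that table these were -0.070, 0.069 and -0.097. How far the array's clones bind rat and mouse RNA unequally was not tested.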

How the data were processed

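The deposited values are scores, 1 per probe and array: every column is centred on 0 and most have an SD near 1, as the values themselves show. The sources used here do not say how the authors made these scores from the scans, or with which background correction. Direction was taken as that of brightness, which is not stated. Gene names came from the platform's annotation, which is old: 384 probes have 1 symbol (342 genes), 6 have several and were not named, and 762 have none. By gene ID, 362 of the named probes were found in the rat gene table, and 22 kept the annotation's symbol.

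Each culture array was set against the wild-type cortex array. The designed test was limma 3.58.1 in R 4.3.3 on the scores as deposited (3 cultures, 1 cortex array, 2 residual degrees of freedom), two-sided, adjusted over all probes by the method of Benjamini and Hochberg, with 0.05 as the limit. It was also run on simulated arrays with 1 spread for all probes, which does not show how it behaves on these arrays. The design had been written for log-scale values. The named genes are, each way, the 12 with 1 symbol, the same sign in all 3 cultures and the largest distance of the nearest culture. List members could be named whatever their values, but not all are named here. The members and lists were chosen with earlier results of these data known, and 3 lists were added after the array's symbols and part of the values had been read. Alternatives were quantile normalization, median and MAD scaling, percentile ranks, a filter on the dimmest 25% of probes, a running median over 25 probes removed, other cortex or rat arrays, each culture left out, trend and robust moderation, a fit of group means and thresholds of 0.5 and 2 Z units. Python 3.11.15, numpy 2.4.6, pandas 2.3.3 and matplotlib 3.10.9 did the rest. The number of arrays limits the precision.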

Additional observations from a re-analysis of the deposited data

Results flagged for a closer look

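In some results the MEK control lay on 1 side of wild-type cortex and both NOS controls on the other. The MEK side is a single array, and the difference between the sets was not tested. The probes below are members of the gene lists. The share of all probes with this pattern is not given, so they do not mark any gene group as particular. The glycolysis and creatine list had medians of 0.22 in the MEK control, -0.0089 in NOS control 1 and -0.14 in NOS control 2. The translation factor and mTORC1 list had -0.032, 0.20 and 0.31. Of single probes with all 3 differences past 0.2 Z units, Map7d1, a microtubule-associated protein gene, was at 0.22, -0.28 and -0.78. Those of the elongation factor Eef1a1 were at -0.56, 0.43 and 0.62 on 1 probe and at -0.47, 0.36 and 0.78 on another. Eef1g, a further elongation factor subunit, was at -0.52, 0.34 and 0.87, and Eef2, which moves the ribosome along, at -0.23, 0.21 and 0.71. The ribosomal protein gene Rpl10 was at -0.54, 0.24 and 1.17, and Rpl13 at -0.49, 0.30 and 0.40. The cortex array cancels from the difference between the MEK and NOS controls.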

How the results depend on the processing

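Limma called 0 probes in each setting except that with all 11 aligned rat arrays, where 2 were lower and 0 higher. Probes past 1 Z unit in all 3 cultures, 4 higher and 7 lower as deposited, were 0 and 4 with quantile normalization, 0 and 4 with median and MAD scaling, 2 and 7 with ranks, 2 and 6 with the misaligned MEK control moved and added, and 3 and 4 with all 11 rat arrays. Those lower were 4 with the knockout cortex. The counts were 33 and 25 at 0.5 Z units and 0 and 0 at 2. Leaving out each culture in turn gave 8 to 23 higher and 8 to 15 lower, partly since fewer arrays must agree. Otherwise the cause was not tested. Mean differences of the 24 named probes kept their sign in all 335 alternatives run. The probes were chosen for sharing a sign in all 3 cultures. Settings that reuse those differences, such as leaving out 1 culture, could therefore not change it. By culture, only 6 of the 12 genes below the cortex stayed below in each with median and MAD scaling. Of 258 list medians under alternatives, 31 moved by more than the SD over the 3 cultures. With the running median along the probe order removed, 10 of the 12 genes below the cortex stayed below in each culture. That median ran from -1.22 to 1.06 Z units in NOS control 2. No paired analysis was possible because the cortex array carries no experiment number.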
